A study of Mus musculus with 10 samples.

Results

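The 40 genes described here cover glucose uptake, the glycolytic enzymes with their isoforms kept apart, lactate handling and common targets of the hypoxia response. They were chosen by gene symbol, and 40 of 40 were found among the 34932 genes of the deposited tables, of which 27403 had a count in at least 1 library. They were measured by RNA sequencing of CD8+ T cells recovered from B16-F10 melanoma, a mouse tumor line. The T cells came from spleens of Pmel Thy1.2/Thy1.2 mice, whose transgenic T cell receptor recognizes the melanoma protein gp100. They were activated with gp100 peptide and IL-2 at 10 IU/mL for 24 h, transduced with the retroviral vector MSCV-IRES-Thy1.1 (MIT), and then grown in IL-2 at 50 IU/mL with IL-7 and IL-15 at 10 ng/mL each. For the MIT-BATF group (5 mice) the vector carried the mouse BATF open reading frame, and for the MIT-Empty group (5 mice) it carried no insert. Transduced cells of either kind were given to tumor-bearing Ly5.1 recipients, with young adult mice of both sexes used in the study, and 2000 live Thy1.1+ cells per mouse were sorted on day 7. The sources used here give no age for single mice.

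Glycolysis breaks glucose down to pyruvate, and activated T cells turn much of that pyruvate into lactate even when oxygen is present. Low oxygen, and T cell receptor and cytokine signals, stabilize the transcription factor HIF-1α, which raises transcription of glucose transporters, most glycolytic enzymes, lactate dehydrogenase A, pyruvate dehydrogenase kinases and mitophagy receptors. HIF binds short DNA sites with the core ACGTG or GCGTG. BATF is an AP-1 family factor that binds DNA with JUN and IRF4 partners, often at the sequence TGACTCA.

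Some features of the libraries bear on the values below. Batf had 12.4, 22.6, 23.5, 24.8 and 26.5 CPM (counts-per-million of the library, scaled by TMM) in the libraries labelled MIT-BATF, against 13.5, 19.9, 36.8, 24.9 and 50.8 CPM in the libraries labelled MIT-Empty. It was not higher in the libraries labelled MIT-BATF (log2 fold change -0.41, adjusted p = 0.522 by edgeR), so the targeted gene did not check the labels, and directions are given by label throughout. Total counts were 10702740 to 34102086 per MIT-BATF library and 6534472 to 21355657 per MIT-Empty library. In both groups the counts of replicate 4 lay inside those of replicate 2, and the counts of replicate 5 inside those of replicate 3, with 0.286% to 0.661% of genes of at least 5 counts exceeding the larger library, against 3.54% for the next closest pair. Fold changes of the 40 genes and calls are therefore given as deposited and again with the shared reads counted once, while values in single libraries are as deposited unless stated otherwise, and a gene is called without reserve only if it passed in both. MIT-BATF replicate 1 had 33.2% of its counts from the mitochondrial genome, and the other libraries had 11.5% to 23.1%. The summed level of 8 melanoma markers was 14.4 to 29.5 CPM in the MIT-BATF libraries and 39.7 to 1738 CPM in the MIT-Empty libraries. Replicates 4 and 2 of MIT-Empty were highest as deposited. With shared reads counted once, replicate 2 fell from 577 to 50.9 CPM, below replicates 1 and 3 (124 and 69.6 CPM). Replicate 4 alone then stood far above the others, at 1879 CPM. The 9 CD8+ T cell markers summed to 3276 to 5509.7 CPM in the MIT-BATF libraries and 3749.7 to 5996 CPM in the MIT-Empty libraries, and 0 of them passed the test. Of the melanoma markers 6 of 6 tested were lower as deposited and 2 of 5 with shared reads counted once. Of 13 macrophage and monocyte markers, which summed to 27.7 to 87.5 CPM in the MIT-BATF libraries and 44.0 to 295 CPM in the MIT-Empty libraries, 4 of 11 tested were lower as deposited and 1 with shared reads counted once. Of 2 fibroblast and endothelial markers tested 1 (Dcn) was lower in both ways of counting, the B cell marker Cd79b was higher as deposited only, and 0 of 1 neutrophil and 0 of 4 erythroid markers passed as deposited. No marker of these lists was at 0 in every library.

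Promoter windows from RefSeq (build GRCm38.p6), reaching from 250 bases before to 50 bases after a transcript start, were matched for 37 of the 40 genes and not for Slc2a3, Bnip3l and Ndrg1. The 4 printed here are those of Eno3, Eno1, Ldha and Bnip3. Eno3 was lower in the MIT-BATF libraries, and its isozyme Eno1 did not pass the test. Ldha had the most ACGTG in any window of these genes when a palindrome is counted on each strand, and Bnip3 was highest in the library with most melanoma markers. The 4 windows lie at chr11:70656926-70657225 (plus strand), chr4:150236458-150236757 (plus strand), chr7:46845554-46845853 (plus strand) and chr7:138909457-138909756 (minus strand). Each is written 5′ to 3′ on the strand of its gene, with capitals for ACGTG or GCGTG on either strand (CACGT or CACGC where the site is on the opposite one).
Eno3: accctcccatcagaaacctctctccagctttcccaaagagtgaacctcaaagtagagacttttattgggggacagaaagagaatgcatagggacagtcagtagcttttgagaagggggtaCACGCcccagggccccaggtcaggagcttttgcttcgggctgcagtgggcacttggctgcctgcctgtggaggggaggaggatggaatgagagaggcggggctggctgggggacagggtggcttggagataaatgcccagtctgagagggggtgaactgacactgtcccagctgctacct
Eno1: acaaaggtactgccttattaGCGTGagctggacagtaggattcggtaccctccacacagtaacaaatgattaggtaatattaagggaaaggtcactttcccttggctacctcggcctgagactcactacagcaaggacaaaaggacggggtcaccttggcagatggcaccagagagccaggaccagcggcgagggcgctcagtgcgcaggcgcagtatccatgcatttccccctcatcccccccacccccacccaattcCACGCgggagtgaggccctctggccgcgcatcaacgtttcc
Ldha: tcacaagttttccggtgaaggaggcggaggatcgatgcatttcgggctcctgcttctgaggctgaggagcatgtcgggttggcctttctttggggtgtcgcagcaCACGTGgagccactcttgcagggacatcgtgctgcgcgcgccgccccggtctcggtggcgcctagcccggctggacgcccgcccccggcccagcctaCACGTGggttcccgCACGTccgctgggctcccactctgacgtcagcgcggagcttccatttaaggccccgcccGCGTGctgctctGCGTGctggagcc
Bnip3: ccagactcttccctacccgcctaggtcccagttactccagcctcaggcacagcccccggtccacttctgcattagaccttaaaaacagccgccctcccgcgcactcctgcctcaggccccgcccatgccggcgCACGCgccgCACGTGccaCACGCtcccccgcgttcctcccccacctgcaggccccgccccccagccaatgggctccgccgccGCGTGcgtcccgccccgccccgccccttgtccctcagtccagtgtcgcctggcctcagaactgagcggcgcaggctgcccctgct
The Eno3 window held 0 ACGTG and 1 GCGTG, and the Eno1 window 0 ACGTG and 2 GCGTG. The Ldha window held 5 ACGTG and 2 GCGTG, and the Bnip3 window 2 ACGTG and 3 GCGTG. Where this core forms a palindrome it lies on both strands and was counted on each. Of the 37 genes with a window, 25 (67.6%) had ACGTG in at least 1 window, against 21.8% of 27025 genes in the promoter table. GCGTG was in a window of 27 genes (73.0%), against 35.2% of the table. TGACTCA, read on both strands, was in a window of 2 genes (5.41%), Aldoa and Kdm3a, against 5.95% of the table. A gene can have more than 1 window, which gives more room for a match. By window, ACGTG was in 50.9% of 57, against 19.6% of 32851 in the table. GCGTG was in 61.4% against 32.4%, and TGACTCA in 5.26% against 5.20%. The genes were chosen partly as hypoxia response targets, and the promoter table was not matched to them in expression or base composition. The contrast with the promoter table is therefore no test. These are matches of letters, and no binding was measured.

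To ask whether glycolytic and hypoxia response transcripts differed between the groups, each gene was tested with edgeR. The filter on low counts kept 37 of the 40 genes with the deposited counts, leaving out Hk3, Eno2 and Adm, and 37 with shared reads counted once, leaving out Pfkfb4, Eno2 and Adm. As deposited, 0 genes were higher and 2 were lower in the MIT-BATF libraries, Eno3 and P4ha2. They are 5.41% of the genes tested here, against 4.58% of the whole table called (2.16% higher and 2.43% lower). With shared reads counted once, 0 were higher and 1 was lower, Eno3 (2.703%, against 1.26% of the whole table, 0.575% higher and 0.683% lower). Of the 40 genes Eno3 alone passed in both fits, and over the whole table the share was 1.24% (0.575% higher and 0.665% lower). At an unadjusted p under 0.05 there were 3 higher and 8 lower genes as deposited (29.7%, against 18.1% of the table), and 2 higher and 6 lower with shared reads counted once (21.6%, against 10.6%). The median log2 fold change of the genes tested was -0.13 as deposited and -0.086 with shared reads counted once, against 0.0065 and -0.0016 over the whole table. Fold changes lay below 0 for 23 genes as deposited (62.2%, against 49.3% of the table) and for 21 with shared reads counted once (56.8%, against 50.2%). The 95% interval lay within 1 log2 unit of 0 for 29 genes as deposited and for 25 with shared reads counted once.

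**Figure D1:**
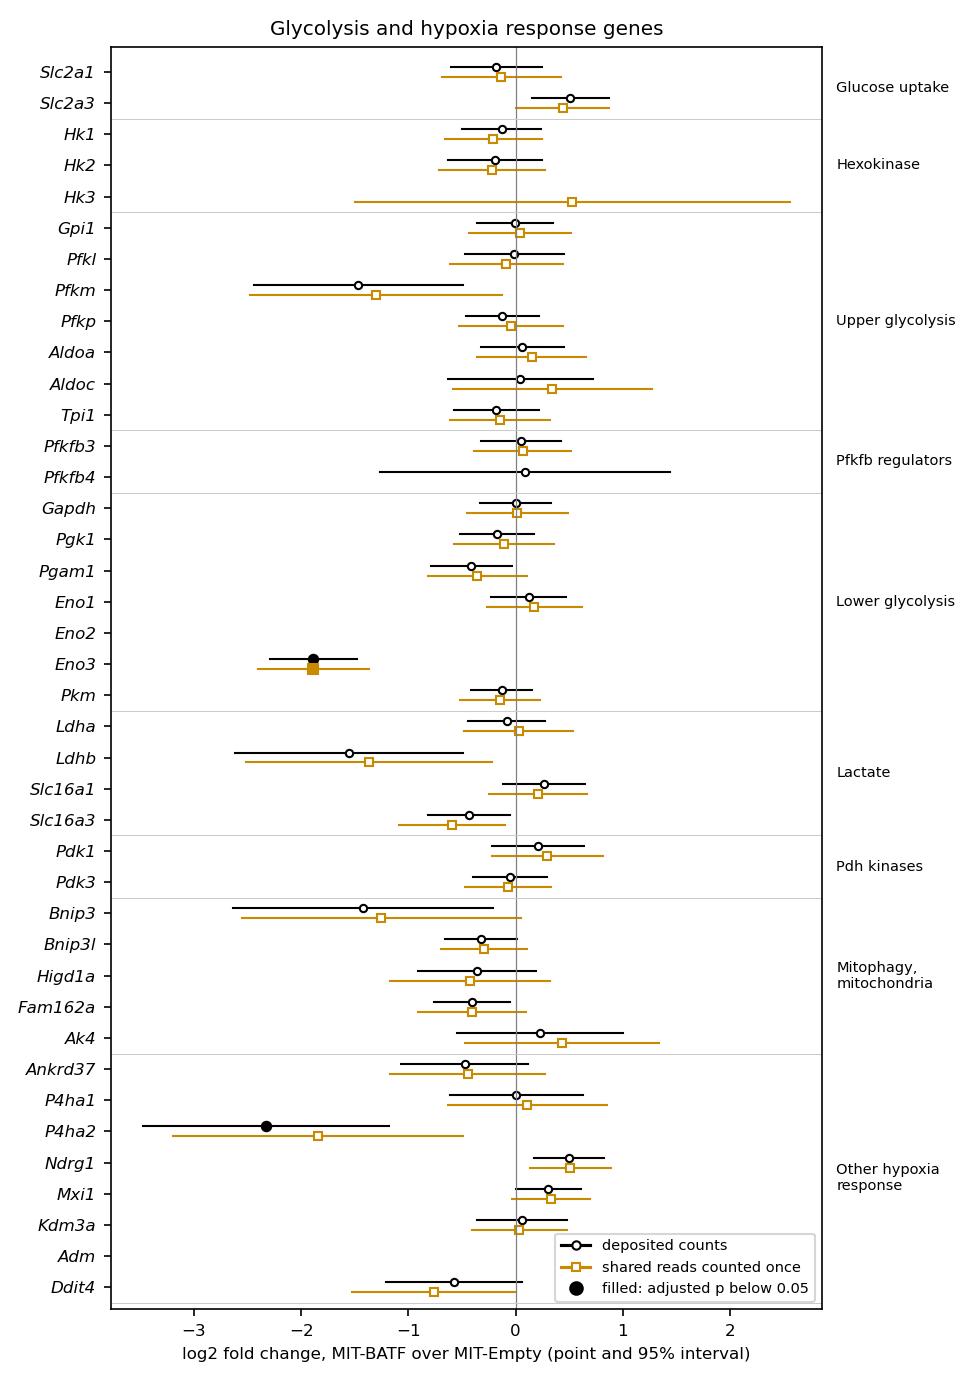
Log2 fold change (x axis, point with its 95% interval) of each gene, MIT-BATF over MIT-Empty, ordered by role, from the deposited counts and with shared reads counted once. Eno3 lies at -1.88 in both, with intervals clear of 0, while most of the other intervals cross 0.

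The enolases showed the clearest difference. Enolase makes phosphoenolpyruvate from 2-phosphoglycerate, and Eno1 encodes the form of most tissues, Eno2 the neuronal and Eno3 the muscle form. Eno3 (ENSMUSG00000060600.15, GRCm38 chromosome 11, 70657202 to 70662513, plus strand) had 6.85, 5.595, 7.76, 7.44 and 6.41 CPM in the MIT-BATF libraries, against 27.2, 24.7, 26.0, 16.3 and 31.2 CPM in the MIT-Empty libraries. Each MIT-BATF value lay below each MIT-Empty value, and the lowest MIT-Empty value was in replicate 4, the library richest in melanoma RNA. The mean was 6.81 ± 0.857 CPM in the MIT-BATF libraries and 25.1 ± 5.47 CPM in the MIT-Empty libraries (SD, n = 5 libraries per group, some nested). The log2 fold change by edgeR was -1.88 (SE 0.19, adjusted p = 0.000102) with a 95% interval of -2.29 to -1.48. With shared reads counted once Eno3 had 7.34, 4.66, 9.41, 7.99 and 6.89 CPM in the MIT-BATF libraries, against 29.2, 31.2, 22.4, 17.6 and 33.6 CPM in the MIT-Empty libraries. The means were then 7.26 ± 1.74 CPM in the MIT-BATF libraries and 26.8 ± 6.60 CPM in the MIT-Empty libraries (SD). The groups again did not overlap, and the log2 fold change by edgeR was -1.88 (SE 0.24, adjusted p = 0.00116). By p, Eno3 ranked 6 of the 11781 genes tested as deposited and 11 of 11129 with shared reads counted once. Behind these values were 76 to 335 counts per MIT-BATF library and 101 to 636 counts per MIT-Empty library.

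Eno1 had 242, 347, 428, 318 and 401 CPM in the MIT-BATF libraries, against 318, 306, 300.4, 375 and 297 CPM in the MIT-Empty libraries. These groups overlapped, with log2 fold changes of 0.12 (SE 0.16, adjusted p = 0.763) as deposited and 0.18 (SE 0.21, adjusted p = 0.874) with shared reads counted once. Eno2 had at most 6 counts in a library and was not tested. Its values, 0 to 0.0979 CPM in the MIT-BATF libraries, against 0.122 to 0.970 CPM in the MIT-Empty libraries, did not overlap as deposited and did with shared reads counted once. TPM values (transcripts-per-million) are scaled to transcript length, so they allow genes to be compared. Eno3 made up 2.07% to 3.65% of the enolase TPM in the MIT-BATF libraries, against 5.43% to 14.8% in the MIT-Empty libraries. With shared reads counted once its share was 1.51% to 3.65% in the MIT-BATF libraries, against 5.43% to 14.8% in the MIT-Empty libraries. Eno1 was thus the main enolase transcript in each library, and the share of Eno3 was smaller in each MIT-BATF library than in any MIT-Empty library.

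**Figure D2:**
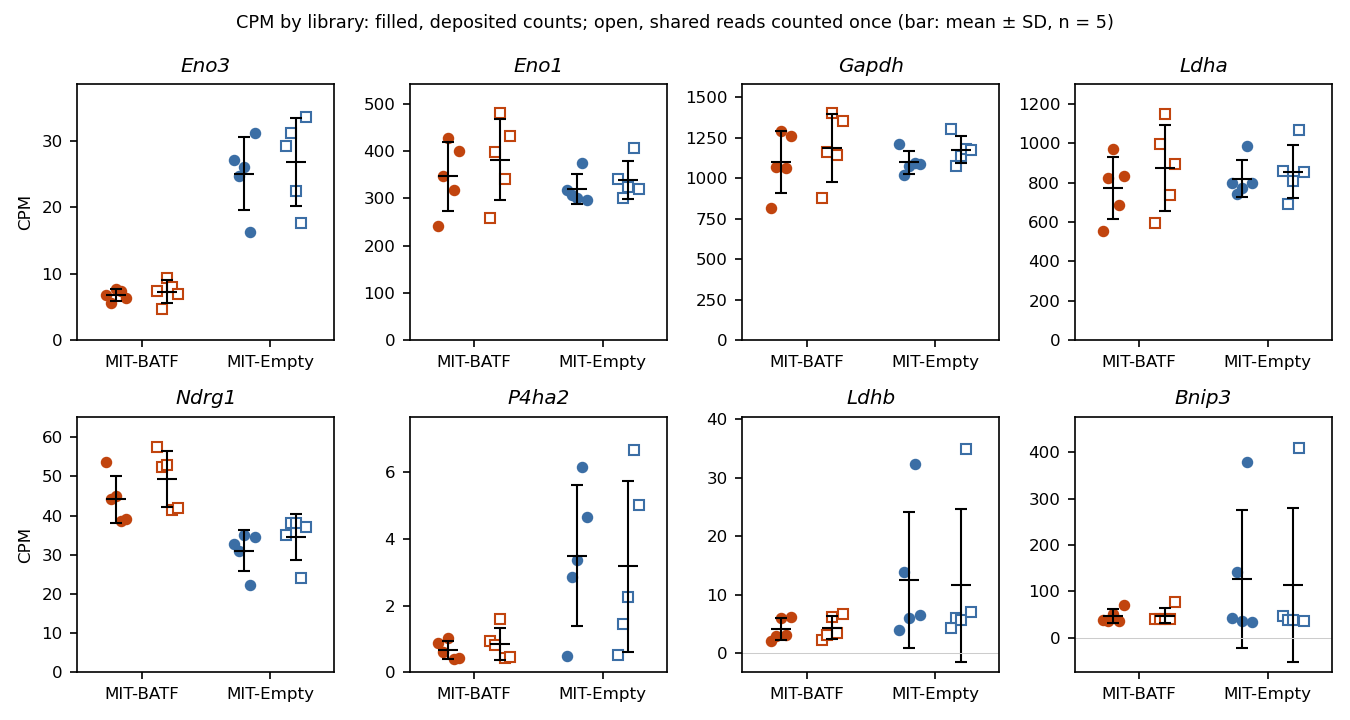
CPM (y axis) of 8 genes in each library by group (x axis), from the deposited counts (filled) and with shared reads counted once (open), with bars for the mean ± SD of 5 libraries. Eno3 spans 4.66 to 9.41 CPM in the MIT-BATF libraries and 16.3 to 33.6 CPM in the MIT-Empty libraries, while Eno1, Gapdh and Ldha overlap.

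Glucose enters through transporters. Slc2a1 (GLUT1), the basal transporter of most cells, had 12.9, 24.4, 23.5, 17.3 and 23.6 CPM in the MIT-BATF libraries, against 23.4, 19.2, 25.1, 30.1 and 18.4 CPM in the MIT-Empty libraries. MIT-BATF replicate 1 was the lowest and MIT-Empty replicate 4 the highest, and the gene did not pass, with log2 fold changes of -0.18 (SE 0.20, adjusted p = 0.706) as deposited and -0.13 (SE 0.26, adjusted p = 0.933) with shared reads counted once. Slc2a3 (GLUT3), a high-affinity transporter, had 47.0, 49.9, 58.6, 42.9 and 58.8 CPM in the MIT-BATF libraries, against 34.5, 40.5, 37.9, 44.1 and 24.0 CPM in the MIT-Empty libraries. MIT-BATF replicate 4 was within the MIT-Empty range and the other MIT-BATF libraries were above it. Slc2a3 did not pass the test, with log2 fold changes of 0.51 (SE 0.17, adjusted p = 0.112) as deposited and 0.44 (SE 0.20, adjusted p = 0.458) with shared reads counted once. Slc2a3 made up 48.4% to 65.0% of the TPM of this pair in the MIT-BATF libraries, against 35.4% to 45.7% in the MIT-Empty libraries, and the ranges met once shared reads were counted once, at 45.9% to 65.0% in the MIT-BATF libraries against 35.4% to 53.5% in the MIT-Empty libraries.

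Hexokinases trap glucose as glucose 6-phosphate. Hk2, the inducible form and the most abundant hexokinase by TPM, had 14.2, 27.1, 25.0, 25.6 and 30.2 CPM in the MIT-BATF libraries, against 25.3, 27.7, 26.2, 39.3 and 21.7 CPM in the MIT-Empty libraries. The lowest value was again in MIT-BATF replicate 1 and the highest in MIT-Empty replicate 4. Hk2 did not pass, with log2 fold changes of -0.19 (SE 0.21, adjusted p = 0.693) as deposited and -0.22 (SE 0.23, adjusted p = 0.843) with shared reads counted once. Hk1, the constitutive form, had 10.0 to 11.2 CPM in the MIT-BATF libraries, against 8.57 to 13.8 CPM in the MIT-Empty libraries, with log2 fold changes of -0.13 and -0.21 as deposited and with shared reads counted once. Hk3 had at most 42 counts in a library and was tested only with shared reads counted once, at a log2 fold change of 0.53 (SE 0.95, adjusted p = 0.929).

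Of 7 genes of upper glycolysis 0 passed with either way of counting, with a median log2 fold change of -0.013 as deposited and -0.042 with shared reads counted once. Aldoa, the aldolase that splits fructose 1,6-bisphosphate and the most abundant of these genes by TPM, had 229, 349, 468, 300.3 and 381 CPM in the MIT-BATF libraries, against 324, 308, 326, 405 and 292 CPM in the MIT-Empty libraries. The MIT-BATF libraries held both the lowest and the highest value, and the log2 fold changes were 0.062 (SE 0.18, adjusted p = 0.907) as deposited and 0.15 (SE 0.24, adjusted p = 0.917) with shared reads counted once. Gpi1, which isomerizes glucose 6-phosphate, had 83.6 to 164 CPM in the MIT-BATF libraries, against 108 to 141 CPM in the MIT-Empty libraries. Tpi1, triose phosphate isomerase, had 139 to 286 CPM in the MIT-BATF libraries, against 227 to 295 CPM in the MIT-Empty libraries, and the brain aldolase Aldoc had 3.82 to 7.21 CPM in the MIT-BATF libraries, against 3.44 to 9.21 CPM in the MIT-Empty libraries. The groups overlapped for these 3 genes, with log2 fold changes, as deposited and with shared reads counted once, of -0.0067 and 0.041 for Gpi1, -0.18 and -0.15 for Tpi1, and 0.043 and 0.34 for Aldoc. The sign for Gpi1 turned with the way of counting. Phosphofructokinase commits sugar to glycolysis. Its muscle form Pfkm had 1.05, 1.01, 1.51, 0.587 and 0.323 CPM in the MIT-BATF libraries, against 2.33, 4.51, 2.05, 2.101 and 1.66 CPM in the MIT-Empty libraries. The groups did not overlap as deposited but did with shared reads counted once, the counts went down to 6 in a library, and the gene did not pass, with log2 fold changes of -1.47 (SE 0.46, adjusted p = 0.0877) as deposited and -1.30 (SE 0.55, adjusted p = 0.38) with shared reads counted once. The start of Pfkm overlaps Senp1 on the opposite strand, and since the libraries do not mark strand, reads of the overlap cannot be told apart. Pfkp, the platelet form, made up 70.8% to 83.4% of phosphofructokinase TPM in the MIT-BATF libraries, against 73.7% to 87.5% in the MIT-Empty libraries. The liver form Pfkl had 7.46 to 16.4 CPM in the MIT-BATF libraries, against 9.53 to 13.6 CPM in the MIT-Empty libraries. The log2 fold changes, as deposited and with shared reads counted once, were -0.13 and -0.042 for Pfkp, and -0.013 and -0.086 for Pfkl. The level of Pfkp is uncertain, since it overlaps Pitrm1 on the opposite strand. Pitrm1 aligned with it over up to 748 bases and held counts equal to 26.1% of those of Pfkp. Pfkfb3, a kinase that makes the phosphofructokinase activator fructose 2,6-bisphosphate, had 7.81, 10.1, 9.596, 8.71 and 9.33 CPM in the MIT-BATF libraries, against 10.4, 8.12, 8.92, 8.404 and 8.297 CPM in the MIT-Empty libraries. The groups overlapped, with log2 fold changes of 0.050 (SE 0.18, adjusted p = 0.923) as deposited and 0.065 (SE 0.21, adjusted p = 0.965) with shared reads counted once. The related Pfkfb4 had at most 0.979 CPM in a library, with a log2 fold change of 0.087 as deposited, and was not tested with shared reads counted once.

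In lower glycolysis, Gapdh, which oxidizes glyceraldehyde 3-phosphate and was the most abundant of the 40 genes by TPM, had 816, 1066, 1289.6, 1061 and 1259 CPM in the MIT-BATF libraries, against 1213, 1019, 1076, 1094 and 1089 CPM in the MIT-Empty libraries. The mean was 1098 ± 190.2 CPM in the MIT-BATF libraries and 1098 ± 70.5 CPM in the MIT-Empty libraries, with a 95% interval of the log2 fold change of -0.33 to 0.33 as deposited and of -0.46 to 0.49 with shared reads counted once. Gapdh has processed pseudogenes. Gm7336, with matches to it of up to 1232 bases and up to 100% identity, held counts equal to 41.6% of those of Gapdh. With its copies added the log2 fold change of Gapdh was -0.11. Pgk1, which makes ATP from 1,3-bisphosphoglycerate, had 368 to 567 CPM in the MIT-BATF libraries, against 421 to 630.4 CPM in the MIT-Empty libraries, with log2 fold changes of -0.18 (SE 0.16, adjusted p = 0.629) as deposited and -0.11 (SE 0.22, adjusted p = 0.934) with shared reads counted once. Pgam1, a phosphoglycerate mutase, had 145, 199.5, 222, 150.3 and 227 CPM in the MIT-BATF libraries, against 235, 248, 233, 340.0 and 204 CPM in the MIT-Empty libraries. The highest value was in MIT-Empty replicate 4, and the log2 fold changes were -0.42 (SE 0.18, adjusted p = 0.225) as deposited and -0.36 (SE 0.22, adjusted p = 0.649) with shared reads counted once. Pkm, pyruvate kinase, had 139 to 196 CPM in the MIT-BATF libraries, against 162 to 198 CPM in the MIT-Empty libraries, with log2 fold changes of -0.13 (SE 0.13, adjusted p = 0.675) as deposited and -0.14 (SE 0.18, adjusted p = 0.881) with shared reads counted once.

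Pkm is spliced into Pkm1, with the exon at GRCm38 chromosome 9, 59675029 to 59675195, or Pkm2, with the exon at 59675568 to 59675734. Pkm2 is the form of proliferating cells. Pkm2 made up 100, 99.3, 98.6, 99.4 and 98.1% of the TPM of both forms in the MIT-BATF libraries, against 99.7, 99.5, 99.5, 99.1 and 99.5% in the MIT-Empty libraries. It was the main form in each library. The mean share was 99.1% ± 0.733 in the MIT-BATF libraries and 99.5% ± 0.233 in the MIT-Empty libraries (SD), a difference of -0.38 percentage points (exact two-sided permutation test over the libraries, p = 0.317). With shared reads counted once it was -0.35 percentage points (exact permutation p = 0.357).

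Lactate dehydrogenase converts pyruvate to lactate. Ldha, the subunit of glycolytic tissues, had 554, 823, 971, 689 and 833 CPM in the MIT-BATF libraries, against 800.1, 746, 776, 988 and 797 CPM in the MIT-Empty libraries. The groups overlapped, and the direction turned with the way of counting, at log2 fold changes of -0.085 (SE 0.17, adjusted p = 0.849) as deposited and 0.031 (SE 0.24, adjusted p = 0.984) with shared reads counted once. Ldhb, the subunit typical of oxidative tissues, had 2.19, 3.04, 6.003, 3.23 and 6.25 CPM in the MIT-BATF libraries, against 4.04, 13.9, 5.98, 32.3 and 6.55 CPM in the MIT-Empty libraries. The high values were those of MIT-Empty replicates 4 and 2, the libraries with most melanoma markers as deposited. Without the reads it shares with replicate 4, replicate 2 had 6.07 CPM of Ldhb and 50.9 CPM of melanoma markers. Ldhb did not pass, with log2 fold changes of -1.55 (SE 0.50, adjusted p = 0.099) as deposited and -1.37 (SE 0.54, adjusted p = 0.325) with shared reads counted once, and with shared reads counted once it was -0.39 without MIT-Empty replicate 4.

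Monocarboxylate transporters carry lactate across the membrane. Slc16a3 (MCT4), the export form induced by hypoxia, had 8.25, 8.64, 8.55, 9.396 and 11.9 CPM in the MIT-BATF libraries, against 15.3, 12.2, 13.2, 11.6 and 10.7 CPM in the MIT-Empty libraries. MIT-BATF replicate 5 alone of its group reached the MIT-Empty range, and the gene did not pass, with log2 fold changes of -0.43 (SE 0.18, adjusted p = 0.213) as deposited and -0.59 (SE 0.23, adjusted p = 0.32) with shared reads counted once. Slc16a1 (MCT1) had 62.0 to 91.2 CPM in the MIT-BATF libraries, against 42.2 to 86.4 CPM in the MIT-Empty libraries, with log2 fold changes of 0.26 (SE 0.18, adjusted p = 0.492) as deposited and 0.21 (SE 0.21, adjusted p = 0.841) with shared reads counted once. Slc16a3 made up 21.7% to 31.3% of the TPM of this pair in the MIT-BATF libraries, against 30.7% to 43.0% in the MIT-Empty libraries, ranges that met at their ends, and with shared reads counted once 18.6% to 31.3% in the MIT-BATF libraries, against 30.7% to 43.0% in the MIT-Empty libraries.

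**Figure D3:**
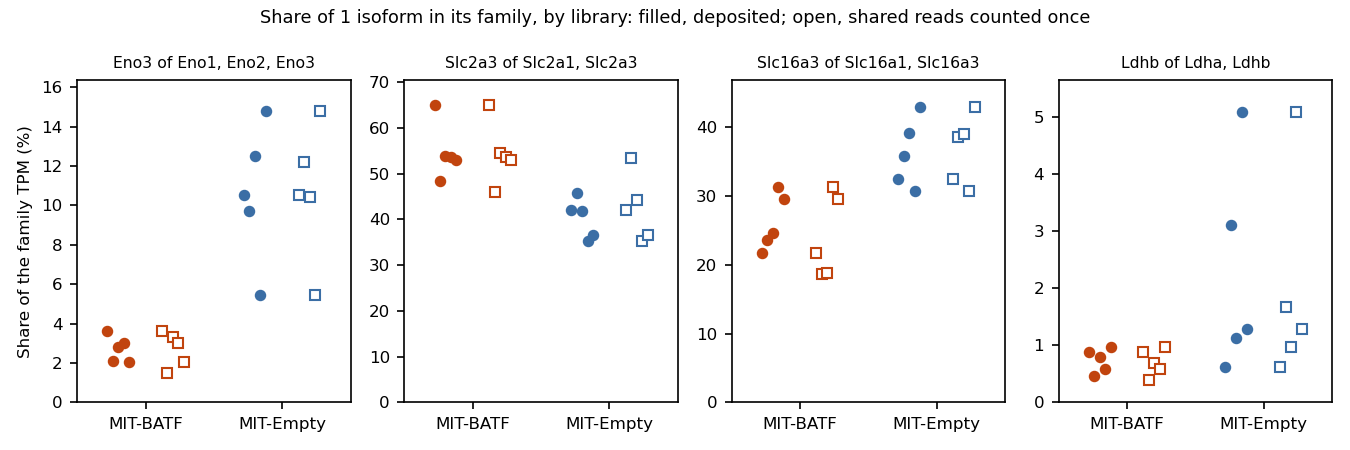
Share (y axis, percent of the summed TPM of the family) of Eno3, Slc2a3, Slc16a3 and Ldhb in each library by group (x axis), from the deposited values (filled) and with shared reads counted once (open). Eno3 lies at 2.07% to 3.65% as deposited in the MIT-BATF libraries, against 5.43% to 14.8% in the MIT-Empty libraries; the other 3 overlap in at least 1 way of counting.

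Pyruvate dehydrogenase kinases keep pyruvate out of the tricarboxylic acid cycle, and 0 of 2 passed. Pdk3, the more abundant by TPM, had 61.8, 46.1, 41.5, 52.0 and 42.3 CPM in the MIT-BATF libraries, against 38.4, 59.2, 46.3, 59.5 and 49.0 CPM in the MIT-Empty libraries. The values interleaved, with log2 fold changes of -0.053 (SE 0.16, adjusted p = 0.909) as deposited and -0.071 (SE 0.19, adjusted p = 0.957) with shared reads counted once. Pdk1, a HIF-1 target, had 30.5 to 39.9 CPM in the MIT-BATF libraries, against 22.5 to 48.8 CPM in the MIT-Empty libraries, with log2 fold changes of 0.21 (SE 0.20, adjusted p = 0.644) as deposited and 0.30 (SE 0.24, adjusted p = 0.77) with shared reads counted once.

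Of 5 genes that act on mitochondria or in mitophagy under low oxygen, 0 passed, with a median log2 fold change of -0.36 as deposited and -0.41 with shared reads counted once. Bnip3, a receptor that marks mitochondria for autophagy, had 38.4, 36.8, 52.3, 36.9 and 71.2 CPM in the MIT-BATF libraries, against 43.1, 143, 35.4, 379.8 and 34.4 CPM in the MIT-Empty libraries. MIT-Empty replicates 4 and 2 stood far above the others, which lay inside the MIT-BATF range or just below it. Without the reads shared with replicate 4, MIT-Empty replicate 2 had 37.9 CPM. The log2 fold changes of Bnip3 were -1.42 (SE 0.57, adjusted p = 0.192) as deposited and -1.25 (SE 0.61, adjusted p = 0.496) with shared reads counted once, and with shared reads counted once it was 0.26 without MIT-Empty replicate 4. That library also had the highest sum of melanoma markers, 1738 CPM, and the part of melanoma RNA in the Bnip3 level was not tested. In bulk samples, fewer cells of a type and less RNA per cell cannot be told apart. Higd1a, a mitochondrial inner membrane protein induced by hypoxia and the most abundant of these genes by TPM, had 189, 282, 287, 322 and 497 CPM in the MIT-BATF libraries, against 300.2, 406, 304, 662 and 355 CPM in the MIT-Empty libraries. The groups overlapped, with log2 fold changes of -0.36 (SE 0.26, adjusted p = 0.515) as deposited and -0.42 (SE 0.35, adjusted p = 0.774) with shared reads counted once. Fam162a, a hypoxia-responsive mitochondrial protein, had 153, 197, 204, 225 and 269.9 CPM in the MIT-BATF libraries, against 237, 278, 235, 331 and 309 CPM in the MIT-Empty libraries. MIT-BATF replicate 5 was within the MIT-Empty range, and the log2 fold changes were -0.41 (SE 0.17, adjusted p = 0.205) as deposited and -0.41 (SE 0.24, adjusted p = 0.616) with shared reads counted once. Bnip3l (NIX), a receptor related to Bnip3, had 61.4 to 87.9 CPM in the MIT-BATF libraries, against 75.2 to 125 CPM in the MIT-Empty libraries, and Ak4, a mitochondrial adenylate kinase, had 1.404 to 3.55 CPM in the MIT-BATF libraries, against 1.102 to 3.39 CPM in the MIT-Empty libraries. Both overlapped between the groups, with log2 fold changes, as deposited and with shared reads counted once, of -0.32 and -0.30 for Bnip3l, and 0.23 and 0.43 for Ak4.

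**Figure D4:**
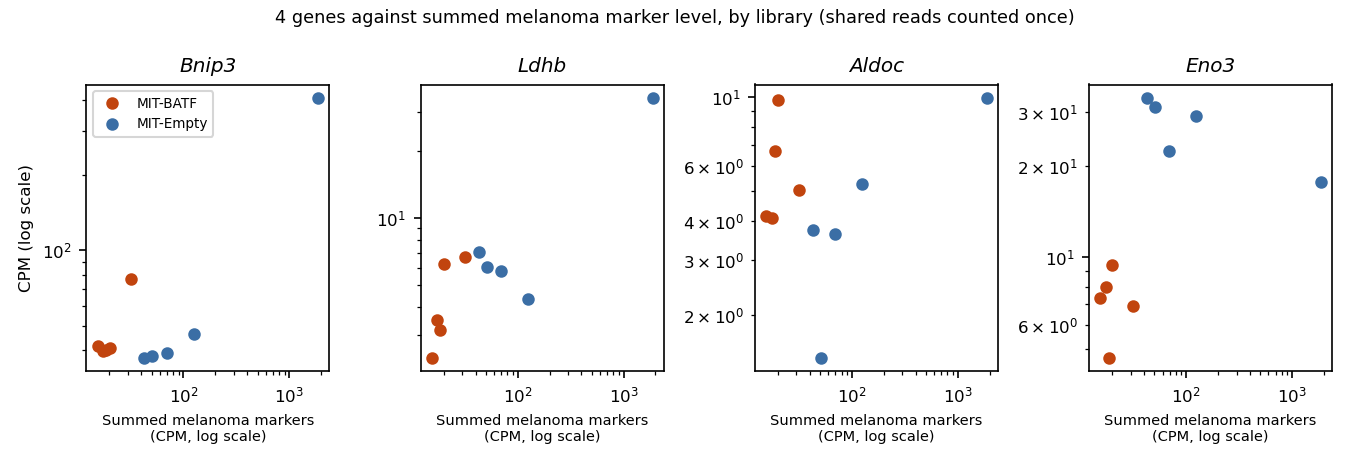
CPM of Bnip3, Ldhb, Aldoc and Eno3 (y axes, log scale) against the summed CPM of 8 melanoma markers (x axes, log scale) in the 10 libraries, with shared reads counted once. The rightmost point is MIT-Empty replicate 4, which had the highest Bnip3 (411 CPM), Ldhb (34.9 CPM) and Aldoc (9.96 CPM) and the lowest Eno3 of its group (17.6 CPM).

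Among 8 other hypoxia response genes, P4ha2, a subunit of the prolyl 4-hydroxylase that modifies collagen, was lower as deposited only. It had 0.878, 0.608, 1.04, 0.391 and 0.431 CPM in the MIT-BATF libraries, against 0.490, 2.84, 3.36, 6.14 and 4.65 CPM in the MIT-Empty libraries. The groups overlapped through MIT-Empty replicate 1, and the counts were 4 to 45 per MIT-BATF library and 4 to 82 per MIT-Empty library. The call was lost with shared reads counted once, at log2 fold changes of -2.33 (SE 0.54, adjusted p = 0.0227) as deposited and -1.84 (SE 0.63, adjusted p = 0.23) with shared reads counted once. The summed level of 7 fibroblast and endothelial markers was 6.95 to 14.1 CPM in the MIT-BATF libraries and 16.1 to 107 CPM in the MIT-Empty libraries. Pecam1 alone made up 6.36 to 14.4 CPM of it over the libraries. The highest sum, 107 CPM, was in MIT-Empty replicate 4. Replicate 2 had 47.2 CPM as deposited and 21.6 CPM with shared reads counted once. The part of fibroblasts and endothelial cells in the P4ha2 level was not tested. Of these markers 2 were tested and 1 was lower with either way of counting.

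Ndrg1, a gene induced by stress and hypoxia, had 53.6, 44.3, 45.0, 38.7 and 39.0 CPM in the MIT-BATF libraries, against 32.7, 30.9, 35.1, 22.3 and 34.4 CPM in the MIT-Empty libraries. Each MIT-BATF value lay above each MIT-Empty value, and so it was with shared reads counted once, at 41.5 to 57.5 CPM in the MIT-BATF libraries, against 24.1 to 38.2 CPM in the MIT-Empty libraries. Ndrg1 did not pass the adjusted threshold, with log2 fold changes of 0.50 (SE 0.15, adjusted p = 0.0832) as deposited and 0.51 (SE 0.18, adjusted p = 0.239) with shared reads counted once. Mxi1, a MAX-binding antagonist of MYC, had 72.6, 52.0, 56.6, 55.5 and 51.2 CPM in the MIT-BATF libraries, against 42.5, 40.6, 50.8, 49.0 and 49.8 CPM in the MIT-Empty libraries. The groups were apart as deposited and overlapped with shared reads counted once, and Mxi1 did not pass, with log2 fold changes of 0.31 (SE 0.14, adjusted p = 0.262) as deposited and 0.33 (SE 0.17, adjusted p = 0.534) with shared reads counted once. Ankrd37, the most abundant of these genes by TPM, had 6.41, 13.5, 16.3, 12.1 and 25.1 CPM in the MIT-BATF libraries, against 19.7, 16.2, 17.5, 26.3 and 23.4 CPM in the MIT-Empty libraries. The groups overlapped, with log2 fold changes of -0.48 (SE 0.28, adjusted p = 0.398) as deposited and -0.45 (SE 0.34, adjusted p = 0.74) with shared reads counted once. The level of Ankrd37 is uncertain, since it overlaps Ufsp2 and Lrp2bp on the opposite strand and the libraries did not mark strand. Ddit4, an inhibitor of mTORC1, had 2.11 to 3.56 CPM in the MIT-BATF libraries, against 2.99 to 6.98 CPM in the MIT-Empty libraries, with log2 fold changes of -0.57 (SE 0.30, adjusted p = 0.33) as deposited and -0.76 (SE 0.36, adjusted p = 0.469) with shared reads counted once. P4ha1, the main catalytic subunit related to P4ha2, had 10.8 to 39.7 CPM in the MIT-BATF libraries, against 20.6 to 40.9 CPM in the MIT-Empty libraries, and Kdm3a, a histone demethylase and HIF-1 target, had 32.3 to 62.1 CPM in the MIT-BATF libraries, against 29.0 to 49.3 CPM in the MIT-Empty libraries. The groups overlapped for both, with log2 fold changes, as deposited and with shared reads counted once, of 0.0075 and 0.11 for P4ha1, and 0.061 and 0.035 for Kdm3a. Adm, which encodes the vasodilator adrenomedullin, had at most 3.39 CPM in a library and was not tested. Of the 37 genes tested, the groups did not overlap for 4 as deposited (Eno3, Pfkm, Ndrg1 and Mxi1, 10.8%, against 6.45% of the whole table) and for 2 with shared reads counted once (Eno3 and Ndrg1, 5.41%, against 3.19%).

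**Figure D5:**
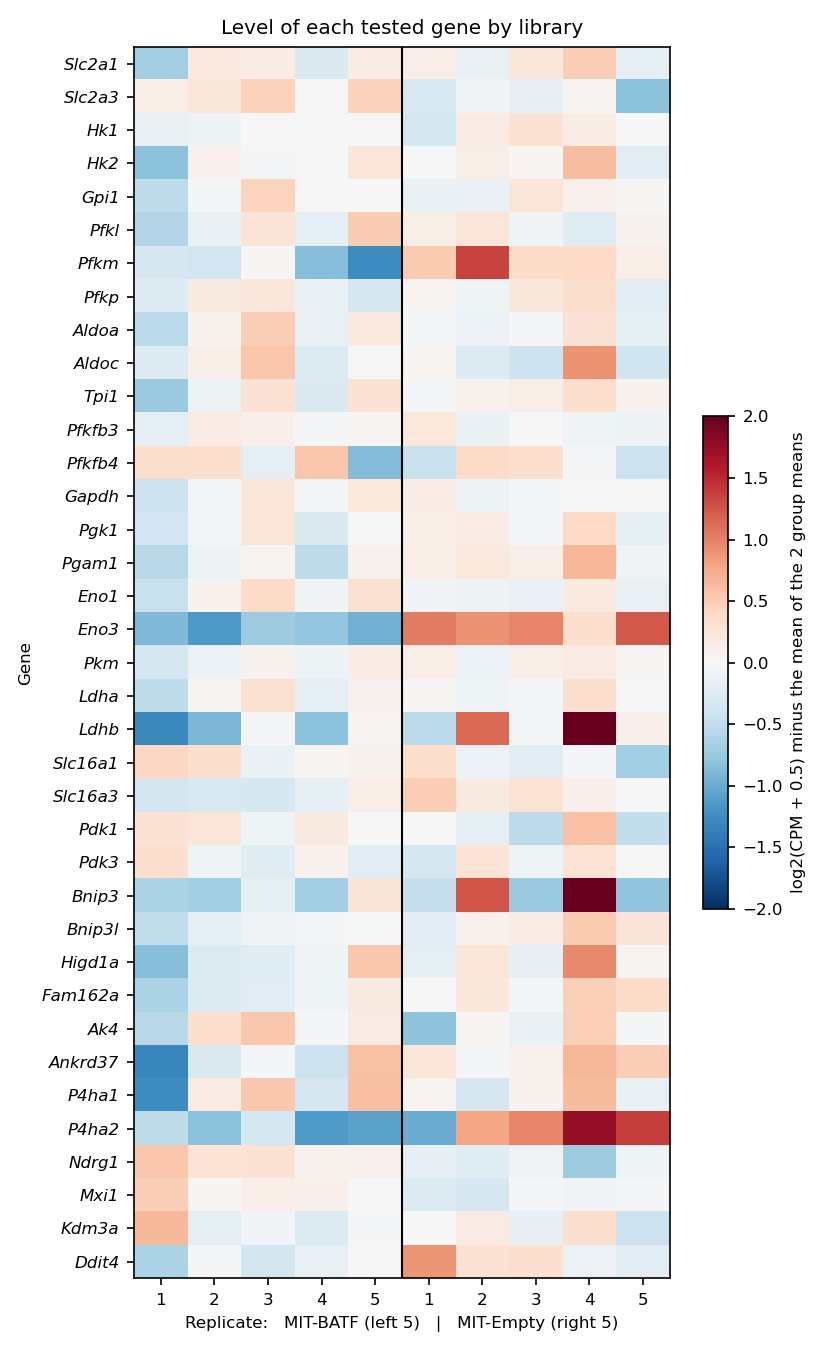
Level of the 37 tested genes (y axis) in each library (x axis, MIT-BATF on the left), as log2(CPM + 0.5) minus the mean of both group means, with the color scale capped at 2 in either direction. MIT-BATF replicate 1 is the lowest of its group for 23 genes and MIT-Empty replicate 4 the highest of its group for 24.

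Many of these genes shared their spread within the groups. MIT-BATF replicate 1 was the lowest of its group for 23 of the 37 genes (62.2%), against 33.3% of the whole table, and with shared reads counted once for 19 (51.4%, against 26.3%). MIT-Empty replicate 4 was the highest of its group for 24 genes (64.9%, against 24.9% of the whole table), and with shared reads counted once for 19 (51.4%, against 22.0%). Kdm3a, Mxi1, Ndrg1, Pdk3 and Slc16a1 went the other way and were highest of the 10 libraries in MIT-BATF replicate 1. Summed over 19 genes for hexokinases, glycolytic enzymes and lactate dehydrogenase, the libraries had 2814, 3887, 4729, 3504 and 4311 CPM in MIT-BATF, against 4093, 3841, 3934, 4656 and 3789 CPM in MIT-Empty. The MIT-BATF libraries held both the lowest and the highest sum, as they did with shared reads counted once, when the sums were 3019 to 5402 CPM in the MIT-BATF libraries, against 3796 to 5033 CPM in the MIT-Empty libraries. Replicate 1, the lowest, is also the library with the largest mitochondrial share, whose part in these levels was not tested.

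Other genes of these pathways were read from the same fits. Of further glycolytic genes 0 of 14 tested passed, of pentose phosphate genes 0 of 10, of genes for pyruvate entry into mitochondria 0 of 10, and of the serine branch 0 of 7, in each case with either way of counting (13 glycolytic genes were tested with shared reads counted once). Their median log2 fold changes as deposited were -0.13 for glycolysis, 0.11 for the pentose phosphate pathway, -0.043 for pyruvate entry and -0.25 for the serine branch. Of 24 further hypoxia response genes 4 were lower and 0 higher as deposited (against 2.43% lower and 2.16% higher of the whole table), and 0 passed with shared reads counted once (against 0.683% lower and 0.575% higher). These 4, named after their values were seen, were Car9, Plod2, Insig2 and Nrn1. Car9, a membrane carbonic anhydrase and HIF-1 target, had 0.0878, 0.892, 0.417, 0 and 0.0539 CPM in the MIT-BATF libraries, against 1.96, 25.4, 3.19, 79.3 and 0.830 CPM in the MIT-Empty libraries. The MIT-Empty values were highest in replicates 4 and 2, and the log2 fold changes were -5.90 (SE 1.19, adjusted p = 0.0109) as deposited and -5.10 (adjusted p = 0.0806) with shared reads counted once. Nrn1, which encodes neuritin, had 18.1, 14.8, 15.2, 20.8 and 17.0 CPM in the MIT-BATF libraries, against 36.9, 33.4, 33.0, 16.8 and 46.2 CPM in the MIT-Empty libraries. Its lowest MIT-Empty value was in replicate 4, as for Eno3, and the log2 fold changes were -0.96 (SE 0.22, adjusted p = 0.0199) as deposited and -1.02 (adjusted p = 0.111) with shared reads counted once. Insig2, which restrains sterol synthesis, had 6.67, 5.51, 11.1, 5.19 and 10.6 CPM in the MIT-BATF libraries, against 14.1, 17.9, 14.3, 24.6 and 15.4 CPM in the MIT-Empty libraries, with log2 fold changes of -1.12 (SE 0.25, adjusted p = 0.0199) as deposited and -1.04 (adjusted p = 0.0916) with shared reads counted once. Plod2, a collagen lysyl hydroxylase, had 5.62, 6.45, 8.599, 5.09 and 6.79 CPM in the MIT-BATF libraries, against 8.69, 15.1, 11.7, 28.1 and 10.9 CPM in the MIT-Empty libraries, with log2 fold changes of -1.17 (SE 0.29, adjusted p = 0.0327) as deposited and -0.98 (adjusted p = 0.224) with shared reads counted once. For both, as for Car9, MIT-Empty replicates 4 and 2, the libraries with most melanoma markers as deposited, were the highest. Replicate 2 holds the reads of replicate 4, so these are not 2 separate cases. Without those reads its melanoma sum was 50.9 CPM. The part of melanoma RNA in these levels was not tested.

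Of 8 genes for HIF subunits and oxygen sensors 1 was higher as deposited (against 2.16% of the whole table) and 0 with shared reads counted once (against 0.575%). It was Hif1a, the oxygen-regulated subunit, also named after its values were seen, with 1045, 664, 501, 665 and 480.0 CPM in the MIT-BATF libraries, against 467, 393, 394, 371 and 329.6 CPM in the MIT-Empty libraries. Each MIT-BATF value lay above each MIT-Empty value, and MIT-BATF replicate 1 was the highest. The log2 fold changes of Hif1a were 0.78 (SE 0.20, adjusted p = 0.0412) as deposited and 0.73 (adjusted p = 0.217) with shared reads counted once.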

How the data were processed

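RNA was measured in 10 libraries, each from 2000 sorted cells of 1 mouse, grouped by the sample titles. The authors made SMART-Seq2 libraries read as 37 bp pairs without a mark of strand, ran the nf-core/rnaseq pipeline on mm10, and quantified with Salmon (named in the submitters' processing notes, with a version not given in the sources used here). Each deposited file holds, per transcript, the authors' estimated counts and TPM.

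Of 112092 transcripts, 305 had no match in GENCODE vM21 (0.0617% to 0.089% of counts) and were left out. Gene sums of the estimated counts were rounded and tested with edgeR 4.0.16 (quasi-likelihood, TMM, filterByExpr), with Benjamini-Hochberg adjustment over the genes kept and a threshold of 0.05. CPM uses TMM-scaled library sizes, and TPM served only to compare genes. For shared reads counted once, counts of replicate 4 were taken off replicate 2 and of replicate 5 off replicate 3 in each group. Where libraries are nested, p-values from the deposited counts treat them as independent. Near-identical copies came from blastn 2.17.0 (at least 95% identity over 200 bases). Alternatives used DESeq2 1.42.0 and limma 3.58.1 in R 4.3.3; Python 3.11.15 did the rest. The fits were run on simulated libraries that share no reads, so the effect of nesting on the p-values was not simulated.

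The genes and lists were chosen with earlier results of these data known. By rule, values in each library were given for genes past the threshold in either fit and for the most abundant gene of each role. Those of genes at an unadjusted p under 0.05 as deposited and of the isozyme Eno1 were added after the values were seen. Of the other pathway lists the rule named genes past the threshold in both fits, of which there were 0.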

Additional observations from a re-analysis of the deposited data

Results flagged for a closer look

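Within each group of 5 libraries, the gap between the highest or lowest value and its neighbor was set against the whole range (Dixon's critical value 0.71). Of 76 groups of values as deposited, 6 had a library far from the rest, where chance gives about 1 in 20 for independent values. The share over all genes was not computed. Nested libraries are not independent, and a library can be masked by the one that holds its reads. Bnip3 and Ldhb were not flagged. With shared reads counted once, MIT-Empty replicate 4 had 411 CPM of Bnip3 (next 46.4 CPM) and 34.9 CPM of Ldhb (next 7.05 CPM). In the MIT-BATF group replicate 1 was far above the others for Mxi1 (72.6 CPM, next 56.6 CPM) and Kdm3a (62.1 CPM, next 38.6 CPM). In the MIT-Empty group replicate 4 was far above for Aldoc (9.21 CPM, next 4.898 CPM), Eno1 (375 CPM, next 318 CPM) and Ldha (988 CPM, next 800.0 CPM), and replicate 2 for Pfkm (4.51 CPM, next 2.33 CPM). MIT-BATF replicate 1 had the largest mitochondrial share and MIT-Empty replicate 4 the most melanoma RNA, and their part in these values was not tested.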

How the results depend on the processing

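Eno3 was lower and passed in each of 36 distinct alternatives (log2 fold change -2.04 to -1.76, adjusted p up to 0.0493, the last without replicates 2 and 3). P4ha2 passed in 12 of 34 (-2.59 to -1.40, adjusted p 0.000482 to 0.537). Genes called lower, 2 as deposited, were 1 with shared reads counted once (alone, with DESeq2, with copies added, without MIT-Empty replicate 4 or without MIT-BATF replicate 1), without replicates 4 and 5 of both groups, without replicates 2 and 3 of both groups, without MIT-Empty replicates 2 and 4, at a mean count of at least 50, and with gene length offsets. With DESeq2 4 were lower and 1 higher (Pfkm, Eno3, Ldhb, P4ha2 and Ndrg1), and with limma voom 4 and 1 (Pfkm, Eno3, Slc16a3, P4ha2 and Ndrg1). Without a filter 3 were lower (Eno3, Ldhb and P4ha2) and 0 higher. Leaving out 1 replicate gave 1 to 2 lower and 0 higher as deposited, and 1 and 0 with shared reads counted once. DESeq2, copies added and single replicates left out, each with shared reads counted once, were chosen after seeing the data. The median log2 fold change was -0.31 without replicates 2 and 3, and -0.17 to -0.045 and -0.17 to -0.0087 over single left-out replicates in the 2 ways of counting. Of other pathway genes, 1 higher and 4 lower became 0 and 0 with shared reads counted once. Over all genes, 254 higher and 286 lower as deposited became 64 higher and 76 lower with shared reads counted once, 436 higher and 480 lower with DESeq2, 637 higher and 699 lower with limma voom, 357 higher and 546 lower without a filter, 37 higher and 59 lower without replicates 4 and 5, 7 higher and 8 lower without replicates 2 and 3, and 127 higher and 132 lower without MIT-Empty replicates 2 and 4. The Pkm2 share differed by -0.60 to -0.14 percentage points over 16 alternatives (exact permutation p 0.0794 to 0.8). The cause of these shifts was not tested.

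With the replicate number as a block, 1 gene was lower as deposited and 1 with shared reads counted once, Eno3 in both. Same-numbered libraries did not deviate together throughout (correlations -0.059 to 0.28 as deposited and -0.11 to 0.42 with shared reads counted once), so the numbers were not taken as a pairing.

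Of 23 genes followed, 14 kept their sign in each alternative. Bnip3 was 0.33 without MIT-Empty replicates 2 and 4, and 0.26 with shared reads counted once and without MIT-Empty replicate 4. Gapdh was -0.030 without replicates 4 and 5, -0.11 without replicates 2 and 3, -0.031 without MIT-Empty replicates 2 and 4, -0.018 at a mean count of 50, -0.075 with length offsets, -0.11 with copies added (-0.070 with shared reads counted once) and -0.015 with the block. Ldha was 0.030 with shared reads counted once (0.029 with DESeq2, 0.030 with copies added, 0.0076 with the block, 0.13 without MIT-Empty replicate 4, 0.14 without MIT-BATF replicate 1) and 0.048 without replicates 4 and 5. Pdk3 was 0.074 without replicates 4 and 5, 0.092 without replicates 2 and 3, 0.13 without MIT-Empty replicates 2 and 4, 0.0008 with shared reads counted once and without MIT-Empty replicate 4, and 0.064 with length offsets. Without replicates 2 and 3 Aldoa was -0.16, Eno1 -0.041 and Pfkfb3 -0.065. Without MIT-Empty replicates 2 and 4 Hk2 was 0.0075 and Pfkfb3 -0.0052. Slc2a1 was 0.0038 with shared reads counted once and without MIT-BATF replicate 1, and 0.0020 with limma voom. Over single left-out replicates, as deposited and with shared reads counted once, the ranges were -0.072 to 0.19 and -0.022 to 0.28 for Aldoa, -1.67 to -0.44 and -1.49 to 0.26 for Bnip3, -0.063 to 0.098 and -0.051 to 0.11 for Gapdh, -0.18 to 0.022 and -0.086 to 0.14 for Ldha, -0.15 to 0.013 and -0.18 to 0.0044 for Pdk3, 0.010 to 0.12 and -0.0024 to 0.13 for Pfkfb3 and -0.25 to -0.045 and -0.28 to 0.0038 for Slc2a1. Within these, with shared reads counted once, Gapdh was -0.033 without MIT-BATF replicate 5 and -0.013 without MIT-Empty replicate 2, and Ldha was 0.091 without MIT-BATF replicate 4, 0.026 without MIT-BATF replicate 5, 0.036 without MIT-Empty replicate 1 and 0.042 without MIT-Empty replicate 5. Low counts limit Hk3, Eno2, Adm, Pfkfb4, Pfkm and P4ha2.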
